A study of Mus musculus with 24 samples.

Results

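The phosphodiesterases that break down cAMP and cGMP in striatal neurons were followed through the mRNA libraries of a mouse stress study. The set was chosen by gene symbol and held 9 genes (*Pde1a*, *Pde1b*, *Pde2a*, *Pde4a*, *Pde4b*, *Pde4d*, *Pde7b*, *Pde8b* and *Pde10a*) of the 38293 genes counted. Because the symbol *Pde4d* belongs to a pair of Ensembl records, the 9 genes gave 10 records, and all 10 were among the 18593 genes with enough reads to be tested. The second *Pde4d* record is a model of 1855 bases with 1 transcript that begins just past the 3' end of the main record, and it is called the *Pde4d* 3' model here.

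RNA came from nucleus accumbens (NAc) punches of C57BL/6J mice that were 9 weeks old by the labels. Stressed males (SM) and stressed females (SF) had gone through Subchronic Variable Stress (SCVS), a course of daily sessions of foot shock, tail suspension or restraint. Their controls were nonstressed males (NSM) and nonstressed females (NSF), and every female pool came from mice in estrus or proestrus. Each of the 4 groups had 3 libraries, and each library pooled 10 punches from 5 mice, so that the replicate is a pool and not a mouse. The same pools gave large RNA for mRNA sequencing and small RNA for miR sequencing.

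Cyclic nucleotide phosphodiesterases hydrolyze cAMP and cGMP and so end the signals that adenylyl and guanylyl cyclases start. In medium spiny neurons, the projection neurons that make up most of the NAc, dopamine raises cAMP through D1 receptors and lowers it through D2 receptors, and protein kinase A (PKA) is its best known effector. *Pde1a*, *Pde1b*, *Pde2a* and *Pde10a* encode enzymes that accept both nucleotides, whereas the enzymes of *Pde4a*, *Pde4b*, *Pde4d*, *Pde7b* and *Pde8b* are selective for cAMP.

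Between 41076780 and 60867747 reads were counted per mRNA library. All 12 medium spiny neuron markers examined were detected in every group, among them *Ppp1r1b* (the gene of the PKA target DARPP-32) at 802 CPM (counts scaled to the library total) in unstressed males. The summed level of these 12 markers ranged over 5212–5949 CPM in NSM, 5550.2–6302 in SM, 5035–5959 in NSF and 5335–6107 in SF libraries. The summed level of 9 cortical glutamatergic markers was far lower and far more uneven, at 50.4–68.9 CPM in NSM, 91.1–243 in SM, 66.1–415 in NSF and 85.0–159 in SF libraries. *Slc17a7*, the vesicular glutamate transporter of cortical neurons, had 10.8 ± 6.28 CPM (SD, n = 3) in unstressed males and 107 ± 62.4 in stressed males. The 6 oligodendrocyte markers summed to 4601–5145 CPM in NSM, 5528–5559 in SM, 5250–5622 in NSF and 5126–5940 in SF libraries. In the same order, the 6 microglia markers summed to 243–264, 274–306, 254–267 and 263–299 CPM. The part of these in the values below was not tested. Choroid plexus markers reached 79.2 CPM in the first unstressed male library and stayed at 9.26–12.9 CPM in the others. In pooled tissue, fewer cells of a type and less RNA per cell cannot be told apart.

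The 9 genes spanned a wide range of expression. Per kilobase of annotated exon, *Pde1b* was the highest at 300.4 ± 26.1 CPM per kb (mean and SD over all 12 libraries), followed by *Pde2a* at 164 ± 6.08, *Pde10a* at 109.6 ± 10.5 and *Pde7b* at 37.2 ± 3.40. These 4 did not overlap with their neighbors in the order in any of the 12 libraries, and the order was the same in all 4 groups. *Pde8b* (27.8 ± 1.65), *Pde1a* (26.8 ± 2.59) and *Pde4b* (26.1 ± 1.91) came next and overlapped, with *Pde8b* above *Pde1a* in 7 of 12 libraries and *Pde1a* above *Pde4b* in 7 of 12. Lowest were the *Pde4d* 3' model (10.8 ± 0.65), *Pde4a* (9.87 ± 1.11) and *Pde4d* itself (3.93 ± 0.23), of which the first pair overlapped. This order depends on the exon length of all annotated transcripts, which was 12598 bases for *Pde10a* and 4267 for *Pde1b*. In CPM without that division, the *Pde10a* mean was above the *Pde1b* mean in all 4 groups. The means were 1285 and 1208 CPM in NSM and 1359 and 1301 in SF libraries. The *Pde4d* count is divided here by 12006 bases of exon from 19 transcripts. The 3' model held a level per kb 2.75 times that of *Pde4d*, and the gene-level counts do not say whether its reads belong to the same transcripts.

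**Figure D1:**
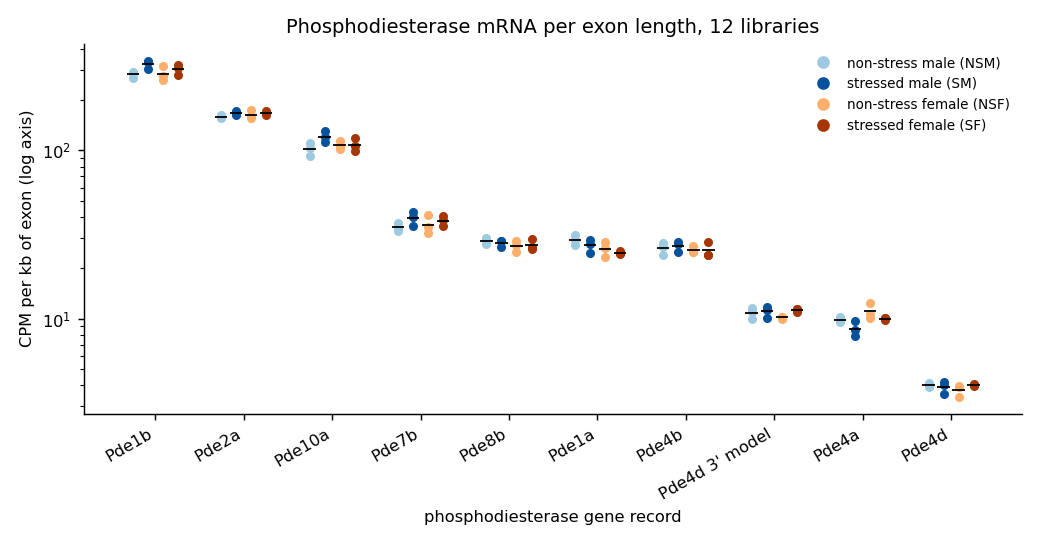
Level of each phosphodiesterase record per kilobase of annotated exon (CPM per kb, log axis) in 12 NAc libraries; points are libraries colored by group and black bars are group means of 3 libraries. *Pde1b*, *Pde2a* and *Pde10a* stand above all other records in every library, and *Pde8b*, *Pde1a* and *Pde4b* overlap.

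None of the 10 records was regulated by SCVS in either sex at the threshold of the study, a limma p under 0.05 with a fold change of at least 1.3. In males 0 of 10 were called, against 6.44% of all tested genes. In females 0 of 10 were called, against 1.73% of all tested genes. The sex-by-stress interaction, the female effect minus the male effect, called 0 of 10 (4.42% of all tested genes), and unstressed females against unstressed males called 0 of 10 (5.31%). edgeR's quasi-likelihood test and DESeq2's Wald test called 0 in all 4 comparisons as well. By p alone, with no minimum fold, 3 records passed in males (*Pde10a*, *Pde1b* and *Pde4a*; background 21.5%), 0 in females (4.23%), 0 in the interaction (9.55%) and 2 in the sex difference (*Pde1a* and *Pde4a*; 15.4%), and no adjusted p was under 0.05. The 95% interval of the log2 fold change lay inside the call threshold of ±0.38 for 10 of 10 records in females and for 9 of 10 in males, the exception being *Pde10a*. The median log2 fold change of the records was 0.04 in males and 0.02 in females, beside -0.01 and -0.0039 over all tested genes.

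**Figure D2:**
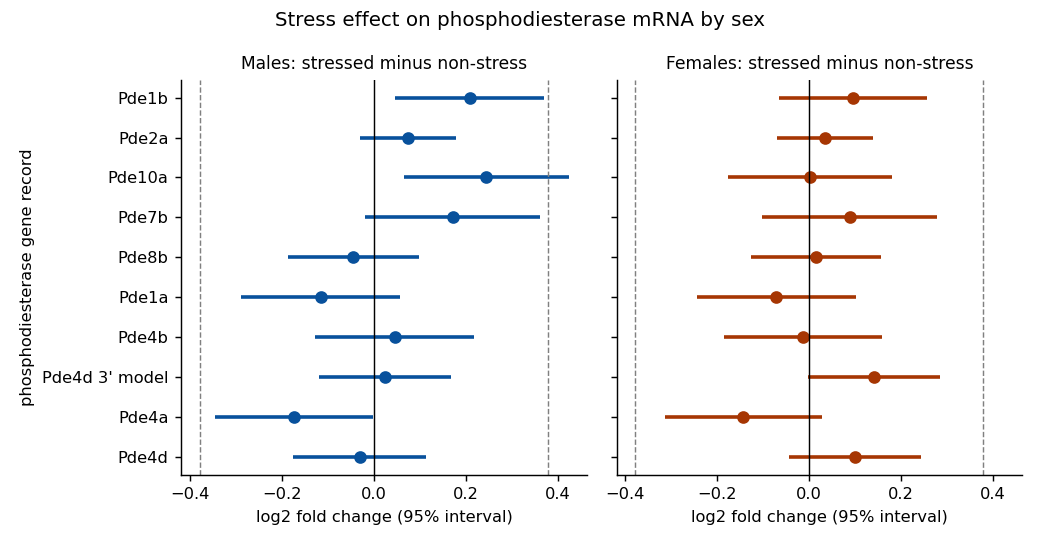
Log2 fold change after SCVS (points) with its 95% interval (bars) for each phosphodiesterase record, in males on the left and females on the right; dashed lines mark the fold threshold of 1.3. In males the intervals of *Pde10a* and *Pde1b* lie above 0 and that of *Pde4a* just below it, and in females every interval includes 0.

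Among the enzymes that hydrolyze both nucleotides, *Pde10a* (chr17:8718237-9179513, plus strand, NCBIM37) encodes an enzyme concentrated in medium spiny neurons. Unstressed males had 1307, 1388 and 1159 CPM and stressed males 1516, 1643 and 1405. All 3 stressed male libraries were above all 3 unstressed ones. The log2 fold change was 0.24 ± 0.08 (SE, adjusted p = 0.12), an 18.5% higher level that stayed below the fold threshold. Unstressed females had 1347, 1443 and 1277 CPM and stressed females 1501, 1243 and 1333. The female groups overlapped, with stressed libraries at both ends of the range, and the log2 fold change was 0.0019 (95% interval -0.18 to 0.18). The interaction was -0.24 ± 0.12 (SE, adjusted p = 0.55), so that a difference between the sexes was not shown.

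*Pde1b* (chr15:103333465-103360483, plus strand), a calmodulin-dependent phosphodiesterase of striatal neurons, had 1226, 1250.2 and 1147 CPM in unstressed males and 1457, 1436 and 1297 in stressed males. These groups did not overlap either, and the log2 fold change was 0.21 ± 0.08 (SE, adjusted p = 0.14). In females, 1189.6, 1358 and 1115 CPM without stress and 1379, 1203 and 1322 with it overlapped, and the log2 fold change was 0.10 ± 0.08 (SE, adjusted p = 0.95). The interaction was -0.11 (adjusted p = 0.80). The male values of both genes depended on scaling and on covariates. Quantile normalization gave 0.10 for *Pde10a* and 0.02 for *Pde1b*, and a covariate for the medium spiny neuron markers gave 0.14 and 0.11. A covariate for the cortical markers gave 0.38 for each, with which both passed the call threshold, as did 7.37% of all tested genes. The male groups did not overlap in that marker level (mean log2 CPM -0.01 to 1.14 in NSM and 1.69 to 3.23 in SM libraries). The unstressed female libraries were all above the unstressed male libraries in this marker level as well. Neither stress in males nor sex without stress can be fully told apart from it. This limits every male, interaction and sex difference value with this covariate. In that fit 1 gene had an adjusted p under 0.05 in males, beside 618 without the covariate.

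*Pde2a* (chr7:108570212-108661340, plus strand) encodes the phosphodiesterase that cGMP itself activates. Its level varied least of the set over the 12 libraries, with 750.2, 736 and 728 CPM in unstressed males and 796, 781 and 754 in stressed males. The male groups did not overlap, yet the log2 fold change was only 0.07 ± 0.05 (SE, adjusted p = 0.40), and it was -0.01 under quantile normalization and 0.16 with the cortical covariate. Thus 3 of 10 records did not overlap between the male groups, all of them higher after stress, beside 11.3% of all tested genes that did not overlap and were higher. Unstressed females had 742, 807 and 728 CPM and stressed females 796, 752 and 782, which overlapped (log2 fold change 0.04, adjusted p = 0.95).

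*Pde1a* (chr2:79674610-79969632, minus strand), the second calmodulin-dependent gene, had 190.4, 166 and 176 CPM in males without stress and 178, 167 and 147 with it. The groups overlapped and the log2 fold change was -0.12 (adjusted p = 0.43). Unstressed females had 172, 139.6 and 159 CPM, and stressed females 148, 153 and 145. Without stress, the female level was lower than the male level by a log2 fold change of -0.18 ± 0.08 (SE, adjusted p = 0.30), with 1 female library inside the male range.

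**Figure D3:**
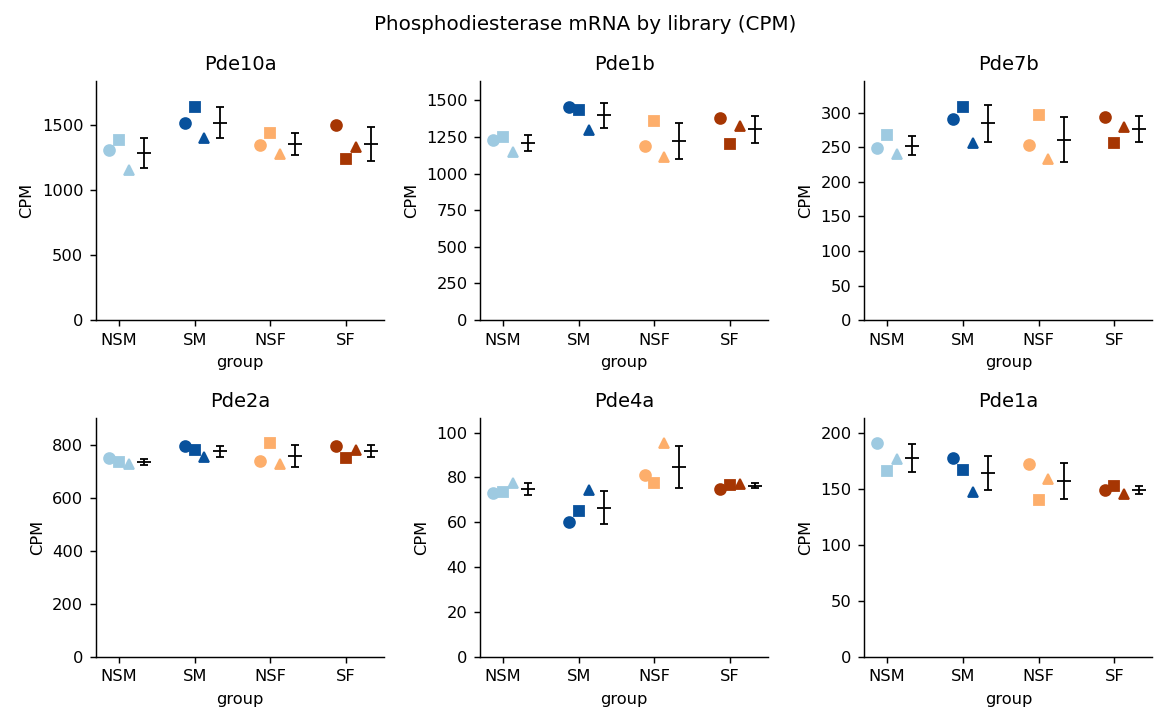
CPM of 6 phosphodiesterases in each library (circle, square and triangle are replicates 1, 2 and 3) by group, with the group mean and SD of 3 libraries beside them; vertical axes start at 0. Stressed male libraries are above unstressed male libraries for *Pde10a*, *Pde1b* and *Pde2a*, and the female groups overlap for *Pde10a*, *Pde1b*, *Pde7b*, *Pde2a* and *Pde1a*.

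Of the genes selective for cAMP, *Pde7b* (chr10:20117810-20444884, minus strand) had the highest level per length. It had 249.6, 268 and 240.5 CPM in unstressed males and 290.5, 309 and 256 in stressed males, with the third stressed library inside the unstressed range. The log2 fold change was 0.17 ± 0.09 (SE, adjusted p = 0.28), and it was 0.37 (adjusted p = 0.11) with the cortical markers as a covariate, just under the fold threshold. Unstressed females had 254, 297 and 233 CPM and stressed females 294, 256 and 279.9, a log2 fold change of 0.09 (adjusted p = 0.95). The same covariate moved the interaction of *Pde7b* from -0.08 to -0.37 (adjusted p = 0.86) and its sex difference without stress from 0.04 to 0.28 (adjusted p = 0.96). *Pde8b* (chr13:95794409-96020291, minus strand), of the high-affinity cAMP family, stayed within 145–176 CPM in all 12 libraries. Its log2 fold change was -0.04 in males (adjusted p = 0.73) and 0.01 in females (adjusted p = 0.98).

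The *Pde4* genes encode the rolipram-sensitive family. *Pde4a* (chr9:20970158-21017692, plus strand) had 73.3, 73.5 and 77.7 CPM in unstressed males and 60.0, 65.2 and 74.5 in stressed males, with a log2 fold change of -0.17 ± 0.08 (SE, adjusted p = 0.23). The third stressed library was inside the unstressed range, and with the cortical covariate the change was -0.36 (adjusted p = 0.085). In unstressed females it had 81.0, 77.5 and 95.2 CPM and in stressed ones 75.1, 76.8 and 76.9. Here the groups did not overlap, and the log2 fold change was -0.14 ± 0.08 (SE, adjusted p = 0.95). Female stressed libraries that all lay below the unstressed ones were found for 6.41% of all tested genes. The interaction of *Pde4a* was 0.03 (adjusted p = 0.96), with estimates below 0 in both sexes, and 0.30 (adjusted p = 0.86) with the cortical covariate. Unstressed females exceeded unstressed males by a log2 fold change of 0.17 (adjusted p = 0.32), and this estimate was -0.05 with the cortical markers as a covariate.

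*Pde4b* (chr4:101760148-102279864, plus strand) had 282, 299 and 253 CPM in NSM, 294, 303 and 263 in SM, 285, 264 and 263 in NSF and 301, 252 and 254 in SF libraries. Its groups overlapped throughout, with log2 fold changes of 0.05 in males and -0.01 in females. *Pde4d* (chr13:109240142-110743669, plus strand) stayed within 41.1–50.3 CPM over all libraries, with log2 fold changes of -0.03 in males and 0.10 in females (adjusted p = 0.95). The 3' model (chr13:110744317-110746171) had 19.1, 19.0 and 18.5 CPM in unstressed females and 21.2, 20.2 and 21.1 in stressed females. These groups did not overlap, and the log2 fold change was 0.14 ± 0.07 (SE, adjusted p = 0.95), beside 4.9% of all tested genes with all stressed female libraries above the unstressed ones. Its value rests on 832 to 1153 reads per library.

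The libraries of a group differed from each other in a pattern that several of the 9 genes shared with the medium spiny neuron markers. When the 3 libraries of each group were ordered by the mean log2 CPM of the 12 markers, none of which is a phosphodiesterase, *Pde1b* followed that order in 4 of 4 groups. *Pde10a*, *Pde2a*, *Pde7b* and *Pde8b* did so in 3 of 4 groups, and *Pde4a* in 0. Of all tested genes, 0.253% had the same order in 4 groups and 3.13% in at least 3, and 5 of the 10 phosphodiesterase records did. The first 2 stressed male libraries had nearly the same marker level (both 8.59), and it was there that *Pde10a* departed from the order. *Pde4a* instead was highest, in 4 of 4 groups, in the library with the most cortical marker RNA, as 4.71% of all tested genes were. In that library 8 of the 10 records were lowest in at least 3 of 4 groups, all but *Pde4a* and *Pde1a*, beside 17% of all tested genes. Other marker lists gave such patterns as well. *Pde10a*, *Pde1b*, *Pde2a*, *Pde4b*, *Pde7b* and the *Pde4d* 3' model were lowest at the top endothelial marker level in 3 of 4 groups. Of all tested genes, 12% were so in at least 3. *Pde1a* was highest in 4 of 4 groups in the library with the most oligodendrocyte marker RNA, as 1.22% of all tested genes were. These orders describe 12 libraries that share 1 scaling, and they were not tested.

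**Figure D4:**
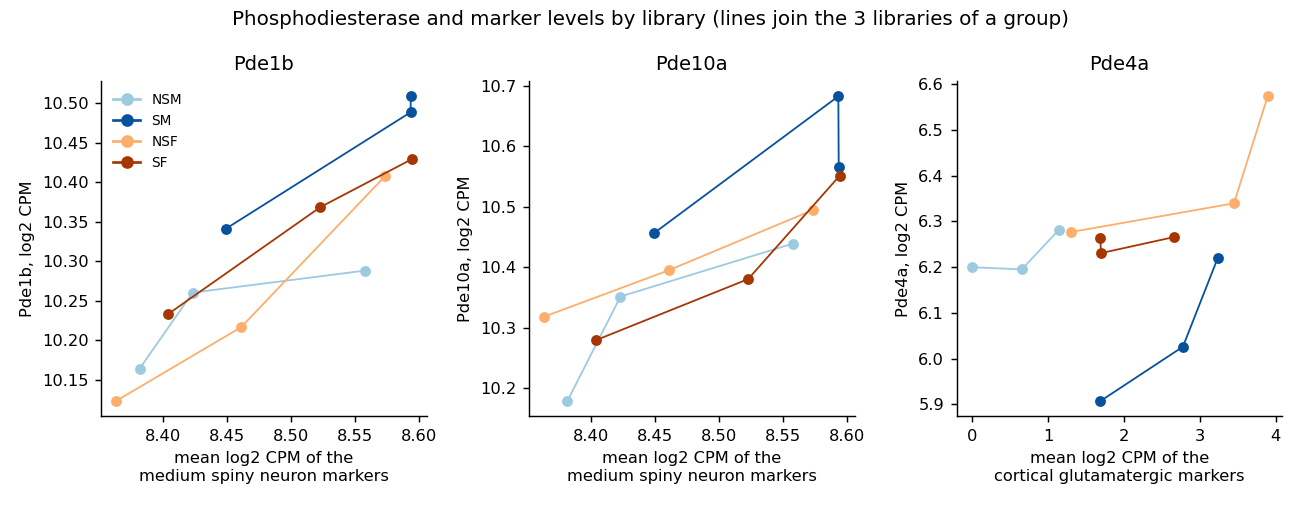
Log2 CPM of *Pde1b* and *Pde10a* against the mean log2 CPM of 12 medium spiny neuron markers, and of *Pde4a* against that of 9 cortical glutamatergic markers; each point is a library, and lines join the 3 libraries of a group. *Pde1b* climbs with the marker level within all 4 groups, and *Pde4a* is highest at the highest cortical marker level of each group.

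The genes whose pattern over the 12 libraries was closest to that of *Pde10a* were *Strn*, the gene of striatin, with a root mean square difference of 0.0328 in centered log2 CPM, *9430020K01Rik* (0.0372) and *Tgfa*, the gene of transforming growth factor alpha (0.0377). They were found among 13110 genes averaging 100 or more reads. The spread of *Pde10a* itself on this scale was 0.13.

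A pair of the phosphodiesterase genes carries miR genes inside introns on the same strand, and these were read in the small RNA libraries (5086554 to 13522287 reads). *Pde2a* holds mir-139 (chr7:108623890-108623957, NCBIM37), and *Pde4d* holds mir-582 (chr13:110114938-110115018) and mir-1904 (chr13:110694017-110694096). None of the 3 overlaps an exon of its host. The deposited small RNA table has rows named for precursors and none for single arms, so that the arms are not separated. The mature sequences of the detected precursors, from RefSeq (GRCm38.p6), are shown with the seed (bases 2 to 8) in capitals because the 4 arms carry different seeds:
miR-139-5p: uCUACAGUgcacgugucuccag
miR-139-3p: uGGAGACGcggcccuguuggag
miR-582-5p: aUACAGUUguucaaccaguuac
miR-582-3p: uAACCUGUugaacaacugaac

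mir-139 was abundant. Unstressed females had 30660.3, 32039.8 and 32447 CPM and stressed females 25536, 28118 and 23933.5. All 3 stressed female libraries were below the unstressed ones, as for 6% of the 500 precursors tested. The log2 fold change was -0.30 ± 0.11 (SE, adjusted p = 0.42), which did not reach the fold threshold (4.8% of precursors were called). Unstressed males had 23214, 30812.9 and 21658 CPM and stressed males 26136, 22286 and 24839.9. These overlapped, with a log2 fold change of -0.03 (adjusted p = 0.95; 5.2% of precursors called), and the interaction was -0.26 (adjusted p = 0.65; 6.8% called). Unstressed females exceeded unstressed males by a log2 fold change of 0.35 ± 0.11 (SE, adjusted p = 0.17; 7.6% called), and 1 library decided the call: without the second unstressed male library the difference was 0.50 and was called, as was the interaction at -0.42. Its host *Pde2a* had log2 fold changes of 0.04 in both of the contrasts, female stress and sex, in which mir-139 had its smallest p values.

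mir-582 was lower by far, with 118, 137 and 126 CPM in NSM, 120.4, 112 and 112 in SM, 118, 110.6 and 117 in NSF and 123, 117 and 111 in SF libraries. Its log2 fold change was -0.14 in males (adjusted p = 0.49) and 0.02 in females (adjusted p = 0.99), and 0 of 4 comparisons had a p under 0.05. mir-1904 had 0 reads in all 12 libraries. An upper limit set at 3 reads corresponds to 0.22 to 0.59 CPM depending on the library. Such limits cover counting error only.

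**Figure D5:**
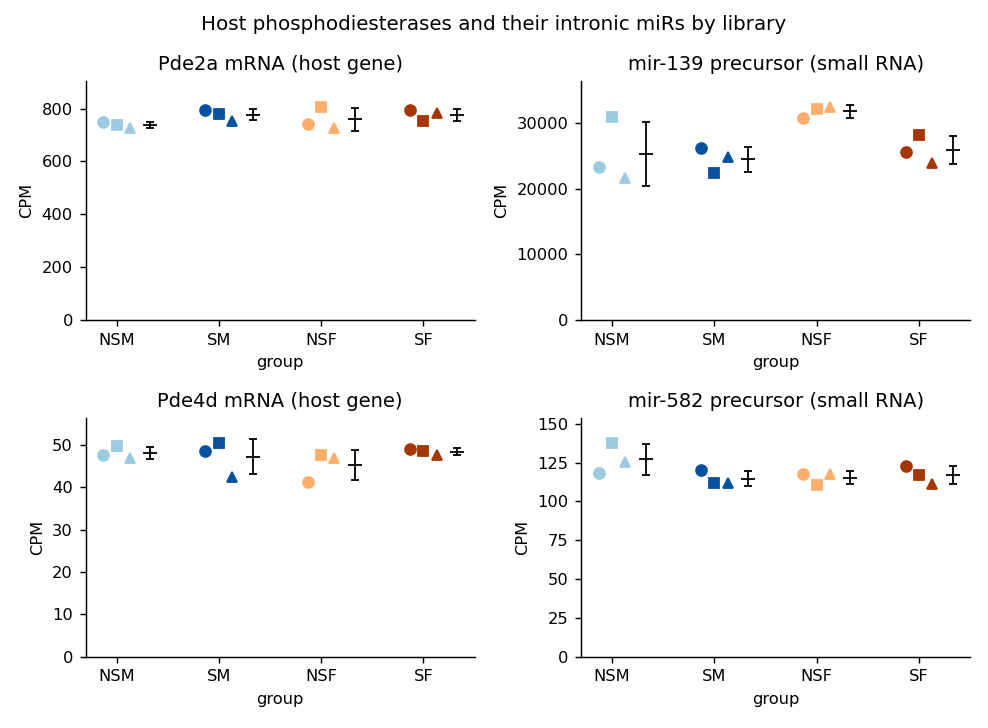
CPM by library of the host genes *Pde2a* and *Pde4d* (mRNA) and of mir-139 and mir-582 (small RNA precursors), with the group mean and SD of 3 libraries; symbols are replicates 1 to 3 and vertical axes start at 0. mir-139 is lower in all 3 stressed female libraries than in the unstressed ones, whereas *Pde2a* overlaps between them.

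The rest of the cyclic nucleotide pathway was read from 7 lists with 65 tested genes. In males 5 of 65 were called (7.69%, beside 6.44% of all tested genes), 2 higher and 3 lower. In females 0 of 65 were called by limma, and none by edgeR or DESeq2, beside 1.73%, 2% and 1.04% of all tested genes. At a limma p under 0.05 there were 2 (*Pde3b* 0.16 and *Akap13* -0.22 on the log2 scale, beside 4.23% of all tested genes). The interaction called 3 of 65 (*Adcy1*, *Pde11a* and *Pde6a*), 4.62% beside 4.42% of all tested genes. The sex difference without stress called 3 of 65 (4.62%, beside 5.31%), *Adcy1* at 0.51, *Pde11a* at -0.82 and *Hcn4* at 0.48. *Pde3b*, *Akap13* and *Hcn4* were named after their values were seen.

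Among the other phosphodiesterases, 2 of 14 fell in males, where 4.08% of all tested genes were called lower. In this list 0 of 14 were called in females (1.73% of all tested genes) and 2 of 14 in the interaction (4.42%). *Pde11a*, a dual-specificity phosphodiesterase, had 7.78, 7.07 and 9.57 CPM in unstressed males and 7.07, 4.13 and 4.56 in stressed males, so that the groups met at 7.07. Its log2 fold change was -0.68 ± 0.20 (SE, adjusted p = 0.077), and it was not called with the cortical markers as a covariate (-0.41). *Pde6g*, the inhibitory subunit of the photoreceptor phosphodiesterase, fell in males by 0.51 on the log2 scale (adjusted p = 0.17) on 19 to 48 reads per library, a call lost with DESeq2, with the cortical covariate (-0.33) and without the first unstressed or the first or second stressed male library.

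Of the adenylyl cyclases, which make cAMP, 1 of 10 rose in males, where 2.36% of all tested genes were called higher, and 0 fell (4.08% called lower). *Adcy1*, a calmodulin-stimulated cyclase, had 216, 203 and 197 CPM in unstressed males and 265, 287 and 294 in stressed males. Its log2 fold change was 0.46 ± 0.10 (SE, adjusted p = 0.0245), and it was 0.19 with the cortical markers as a covariate, below the fold threshold.

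Of 6 other effectors of cyclic nucleotides, 1 rose and 1 fell in males, beside the same 2.36% and 4.08% of all tested genes. *Rapgef4*, the gene of the cAMP-activated exchange factor Epac2, had 312, 299 and 269.99 CPM in unstressed males and 387, 424 and 391 in stressed males. Its change was 0.45 ± 0.06 (SE, adjusted p = 0.0048), and 0.40 with the cortical covariate. *Hcn3*, a channel gated by cyclic nucleotides, fell by 0.43 (adjusted p = 0.11), a call that was lost without the third unstressed male library (-0.30), without the second stressed male library (-0.31) and with the medium spiny neuron covariate (-0.29).

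No gene was called in males, females or the interaction among the 7 genes of cGMP synthesis, the 11 cyclic nucleotide kinase genes, the 10 kinase anchors and the 7 G protein genes. Of all tested genes, 6.44% were called in males, 1.73% in females and 4.42% in the interaction. By p alone, 4 of the genes in these lists were lower in males, a share close to the 11.5% of all tested genes that were lower. By the same rule 0 were higher, beside 9.93% of all tested genes. The 4 lower genes were the kinase genes *Prkar2a* (-0.20) and *Prkg2* (-0.20) and the anchors *Akap10* (-0.15) and *Akap12* (-0.22), named after their values were seen. *Prkar2a*, *Prkg2* and *Akap12* had interactions of 0.24, 0.36 and 0.26. No adjusted p among these was under 0.05.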

How the data were processed

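The authors aligned mRNA reads with TopHat2 to NCBIM37 and counted them per Ensembl gene with HTSeq, and they aligned small RNA reads with Bowtie and counted them with HTSeq against mature miR annotation of miRBase. The rows of the small RNA table carry precursor names. The deposited values are raw counts for 12 mRNA and 12 small RNA libraries, each mapped to its group by its label. No strand setting is given in the sources used here.

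The read filter of the study (over 5 reads in 80% or more of any group's libraries) was applied, and features were scaled by TMM (edgeR 4.0.16) and fitted by voom and limma 3.58.1 in R 4.3.3, with a mean for each of the 4 groups. The study's call rule was used (p before adjustment under 0.05, fold 1.3 or more), and p was adjusted after Benjamini and Hochberg across the tested features of each assay. CPM values are TMM-scaled. Exon lengths and coordinates come from the GENCODE annotation of NCBIM37, an earlier release than the one the authors counted on. Intervals are 95% limma intervals. The fit was tested on simulated data. DESeq2 1.42.0, edgeR's quasi-likelihood test, other scalings, filters, covariates and left-out libraries were tried.

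All 9 genes were named. The closest genes were given for genes that passed the call rule and for *Pde10a*, and up to 3 called genes were named from each of 7 pathway lists. The 9 genes, the lists, markers and tests were chosen with earlier results of these data known. Alternatives for miRs and pathway genes were added after the data were seen. The p values measure the spread between pools of mice. No library held the counts of another, and no overlapping gene shared exon bases with the 10 records.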

Additional observations from a re-analysis of the deposited data

Results flagged for a closer look

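A sex-by-stress interaction with a p under 0.05 was found for 0 of the 10 phosphodiesterase records, for neither detected intronic miR and for 8 of 65 other genes of the cyclic nucleotide pathway, beside 9.55% of all tested genes, and whether these shares differ was not tested. With the cortical markers as a covariate 4 records had such a p (*Pde10a*, *Pde1b*, *Pde4a* and *Pde7b*, all with an adjusted p of 0.86). The share of all tested genes with such a p in that fit was not counted. The 9.55% belongs to the fit without the covariate, so these 4 records cannot be read as more than a background share. Of the 8 pathway genes, 4 are described here. *Adcy1* had a log2 fold change of 0.46 in males and -0.18 in females, an interaction of -0.63 (adjusted p = 0.14), and its male groups did not overlap, whereas the female groups did, at 247–344 CPM without stress and 245–284 with it (adjusted p of the female effect 0.95). With the cortical markers as a covariate the interaction was -0.25 (adjusted p = 0.86). *Rapgef4* had 0.45 in males and 0.10 in females, an interaction of -0.35 (adjusted p = 0.23) that stayed under the fold threshold. *Pde11a* had -0.68 in males and 0.32 in females, an interaction of 1.00 (adjusted p = 0.29), and 0.64 (adjusted p = 0.86) with the cortical covariate. *Pde6a* had an interaction of -1.41 (adjusted p = 0.47) on 3 to 11 reads per library, which lost its call with DESeq2, with the cortical covariate (-0.97) and without NSM, SM or NSF replicate 3 or SF replicate 2 (-1.26 to -1.03).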

How the results depend on the processing

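The count of 0 called phosphodiesterase records held in all 4 comparisons under edgeR, DESeq2, the other scalings, filters and weights, the adjusted p as call rule and every fit without 1 library. A covariate for the cortical marker level gave 2 in males (*Pde10a* and *Pde1b*, beside 7.37% of all tested genes in that fit). It gave 1 in the interaction (*Pde10a*, -0.44, beside 3.37%). *Pde7b* (0.37) and *Pde4a* (-0.36) in males were just under the fold threshold there. Dropping the fold minimum gave 3 in males (21.5% of all tested genes) and 2 in the sex difference (15.4%). DESeq2 gave *Pde10a* in males an adjusted p of 0.046, and over the other alternatives with all libraries its adjusted p was 0.057 to 0.29.

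The same replicate numbers recur in all groups. The deviations of same-numbered libraries from their group means correlated at 0.0244, -0.00032 and 0.32 in males and 0.10, 0.078 and 0.11 in females. Between the female groups every library correlated most with its own number. Between the male groups only the third did, and the first and second correlated most with each other's number (0.18 and 0.15). Whether same-numbered libraries share a batch was not tested. With the replicate number as a block, 0 records were called in any comparison, and *Pde10a* in males kept 0.24 (adjusted p = 0.057). The pathway genes called in females went from 0 to 1 (1.95% of all tested genes called). In that fit 998 of all tested genes had an adjusted p under 0.05 in males and 562 in the sex difference, beside 618 and 53 without the block. Females had 0 in both fits.

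The counts of pathway genes called moved as follows. Of the 65 genes, the adjusted p as rule gave 2 in males, 0 in the interaction and 1 in the sex difference. Of all tested genes it gave 3.32%, 0.0269% and 0.285%. By p alone there were 14 in males (21.5% of all tested genes), 2 in females (4.23%), 8 in the interaction (9.55%) and 13 in the sex difference (15.4%). Quality weights gave 2 in females, 5 in the interaction and 5 in the sex difference, beside 2.86%, 5.65% and 6.73% of all tested genes. Library size scaling gave 5 in the interaction (4.23% of all tested genes). The cortical covariate gave 0 in the sex difference (2.4%) and the fit to 6 libraries 1 in females (1.9%). Without 1 library the counts were 3 to 7 in males, 0 to 2 in females, 2 to 7 in the interaction and 2 to 6 in the sex difference. The shares of all tested genes called in these fits were 4.44% to 8.67%, 1.42% to 3.47%, 3.6% to 5.91% and 3.77% to 6.58%. The lowest male count came without the second stressed male library (4.91% of all tested genes called). The highest interaction count came without the second unstressed female library (5.91%).

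Several small log2 fold changes changed sign, and the cause was not tested. With quantile normalization these were *Pde2a* (-0.012) and mir-139 (0.040) in males, *Pde10a* in females (-0.063), *Pde1b* (0.032) and *Pde2a* (0.023) in the interaction and *Pde1b* in the sex difference (-0.062). With library size scaling they were *Pde4b* (-0.0051) and the *Pde4d* 3' model (-0.025) in males, *Pde10a* (-0.017) and *Pde8b* (-0.0042) in females and *Pde1b* in the sex difference (-0.0082). With the medium spiny neuron covariate they were *Pde4b* (-0.032) and the *Pde4d* 3' model (-0.034) in males, *Pde10a* (-0.046) and *Pde8b* (-0.017) in females, *Pde4a* in the interaction (-0.016) and *Pde1b* in the sex difference (-0.00052). With the cortical covariate they were *Pde4d* (0.073) and *Pde8b* (0.10) in males, *Pde10a* (-0.060), *Pde2a* (-0.0024), *Pde7b* (-0.00056) and *Pde8b* (-0.050) in females, *Pde4d* (-0.017) and *Pde8b* (-0.15) in the interaction and *Pde4a* (-0.050), *Pde4b* (0.053), *Pde4d* (0.028) and *Pde8b* (0.067) in the sex difference. With quality weights they were *Pde10a* (-0.018) and *Pde8b* (-0.0017) in females, *Pde1a* in the interaction (-0.068) and *Pde1b* (-0.032) and *Pde7b* (-0.018) in the sex difference. With only 6 libraries it was *Pde1b* in the sex difference (-0.00040).

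Leaving out 1 library at a time, the sign also changed in males for *Pde4b* (-0.016 to 0.11), *Pde4d* (-0.076 to 0.048), the *Pde4d* 3' model (-0.026 to 0.091) and mir-139 (-0.11 to 0.12), and in females for *Pde10a* (-0.073 to 0.070), *Pde1a* (-0.15 to 0.0045), *Pde4b* (-0.099 to 0.038), *Pde8b* (-0.046 to 0.062) and mir-582 (-0.018 to 0.052). In the interaction it changed for *Pde1a* (-0.036 to 0.11), *Pde2a* (-0.077 to 0.0062), *Pde4a* (-0.038 to 0.12), *Pde4b* (-0.14 to 0.0063), *Pde7b* (-0.17 to 0.013) and *Pde8b* (-0.011 to 0.11), and in the sex difference for *Pde1b* (-0.068 to 0.069), *Pde2a* (-0.0069 to 0.063), *Pde4b* (-0.11 to 0.019) and *Pde7b* (-0.054 to 0.12). In males *Pde10a* ranged over 0.18 to 0.32 and *Pde1b* over 0.18 to 0.27 across these fits. An exact permutation test of 1 gene cannot go below a p of 0.10 with 3 pools against 3. The phosphodiesterase records held at least 832 reads in every library, and *Pde6a* and *Pde6g* far fewer, and the effect of depth on the calls was not tested.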
